A study of Mus musculus with 8 samples.

Results

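The genes described here encode the nuclear subunits of respiratory complexes II, III, IV and V and the carrier cytochrome c. They were chosen by name: the protein-coding genes Sdha to Sdhd, Cyc1 and Cycs, and those whose symbol begins with Uqcr, Cox4i, Cox5, Cox6, Cox7, Cox8 or Atp5. The rule found 52 genes among the 56691 of the table: 4 of complex II, 9 of complex III, Cycs, 19 of complex IV and 19 of complex V. Counts were high enough for a test in 49 of the 52, beside 22423 genes tested in all. A further 13 genes had a matching name but were not annotated as protein coding and were left out.

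RNA-seq had been run on the cerebella of 8 mice aged 6 months, 4 labelled ATM +/+ (Atm-WT, mice 2M, 7M, 13M and 32M) and 4 labelled ATM -/- (Atm-KO, mice 1M, 7F, 11M and 12M). ATM is the kinase whose loss causes ataxia-telangiectasia, a disorder with cerebellar degeneration. The knockout line was B6;129S4-Atmtm1Bal/J, on a mixed background and with the Atm allele changed in the germ line. Crosses of heterozygotes gave both genotypes, and Atm-WT littermates served as controls. By the study's general methods, mice were perfused with saline under avertin anaesthesia before tissue was taken. The comparison asks how the cerebellar transcriptome differs without ATM. Levels are given as CPM, the count of a gene relative to the TMM-scaled total of its library. Values of single mice follow the order of mice above. Differences are log2 fold changes of Atm-KO over Atm-WT from edgeR's quasi-likelihood fit, and adjusted p-values are taken over all genes tested.

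Complexes II to IV pass electrons from succinate, ubiquinol and cytochrome c to oxygen, and complex V (ATP synthase) uses the proton gradient that complexes III and IV build. Complex II is the one complex here encoded entirely in the nucleus. Complexes III, IV and V each combine nuclear subunits with a few from the mitochondrial genome, so both genomes have to supply parts. In the cerebellum, oxidative phosphorylation carries most of the energy cost of neuronal firing. Several complex IV subunits exist as tissue isoforms, of which brain normally uses the broadly expressed form.

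Library totals ran from 65967130 to 88030300 counts. Atm itself was counted in all 8 mice, at 59.0 to 80.0 CPM in the Atm-WT mice and 41.1 to 51.1 in the knockouts (log2 fold change -0.66, SE 0.10, adjusted p = 0.0775 by edgeR and 2.0e-05 by DESeq2). The labelled tissue was borne out by granule cell markers (Gabra6, Neurod1 and 6 others), whose summed level was 5433 to 6455 CPM in Atm-WT mice and 5637 to 7684 in Atm-KO mice, and by Purkinje cell markers, at 8231 to 10101 and 8014 to 9616 CPM. In whole tissue, fewer cells of a type and less RNA per cell cannot be told apart. The genotypes differed in composition: TEC loci, a GENCODE class of candidate transcripts, took 0.204% to 0.333% of counts in the Atm-WT libraries and 0.354% to 0.529% in the Atm-KO libraries, while the mitochondrial genome took 0.903% to 1.20% and 0.565% to 0.952%.

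Nearly all subunit genes were lower in the Atm-KO cerebellum by a small amount, and none of them passed the test across all genes. Of the 49 tested, 47 had a log2 fold change below 0 and 2 above it (Atp5mg, subunit g of the ATP synthase, and Cox7b2, a little-expressed isoform). The median log2 fold change was -0.20, against -0.02 over all genes tested, -0.06 over protein-coding genes and -0.06 over genes with a mean of at least 50 CPM. A log2 fold change below 0 was found for 53.1% of all genes tested, 63.8% of protein-coding genes and 70.7% of genes at 50 CPM or more. With a surrogate variable in the model, the member median was -0.090, 41 were lower and 1 instead of 21 (counted below) was lower at an unadjusted p under 0.05, which 4.35% of all genes then were.

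By edgeR, 0 of the 49 reached an adjusted p under 0.05, as did 0.0178% of all genes tested. DESeq2, whose calls in the lower direction took 2.44% of the genes it adjusted, called 3: Sdha (adjusted p = 0.0352), Cox6a1 (0.0361) and Atp5mc1 (0.0499). At an unadjusted edgeR p under 0.05, 21 members (42.9%) were lower, against 8.48% of all genes tested, 11.7% of protein-coding genes and 15.4% of genes at 50 CPM or more. One member, Atp5mg, was higher at that level, which 11.7% of all genes were. In 9 members (18.4%) all 4 Atm-KO mice lay below all 4 Atm-WT mice, against 5.12% of all genes, 6.98% of protein-coding genes and 9.98% of genes at 50 CPM or more. They were Sdha, Sdhc, Sdhd, Uqcrh, Uqcr10, Cox5b-ps, Atp5mc1, Atp5f1d and Atp5f1a.

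The count of 21 rested on single libraries. It was 8 without Atm-WT mouse 32M (6.96% of all genes were then lower at that p), 9 without Atm-KO 11M (6.33%), 11 without Atm-KO 12M (6.01%), 12 without Atm-KO 1M (5.67%) and 29 without Atm-WT 7M (8.63%). Without Atm-KO 7F, the one mouse labelled F, it was 25 (7.81%). Fewer mice make overlap rarer for any gene: without Atm-KO 7F, 24 of 50 members did not overlap (48%, against 9.32% of all genes, 12.8% of protein-coding genes and 17.5% of genes at 50 CPM or more), and without Atm-WT 7M, 17 of 49 (34.7%, against 8.19%, 10.9% and 13.6%). The 2 left-out pairs below were chosen after seeing the data. Without Atm-WT 2M and 32M, 42 of 50 members tested were lower, with a median of -0.08, and 3 were lower at an unadjusted p under 0.05 (Sdha, Atp5f1a and Atp5mc1), a share near the 5.08% of all genes. With that pair left out, 9 of 50 members did not overlap (18%), against 11.3% of all genes and 28.2% of genes at 50 CPM or more. Without Atm-WT 32M and Atm-KO 12M, 43 of 49 were lower, with a median of -0.11, and 5 were lower at that p (Sdha, Atp5mc1, Cox5b-ps, Atp5f1d and Cox6a1), against 6.05% of all genes.

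**Figure D1:**
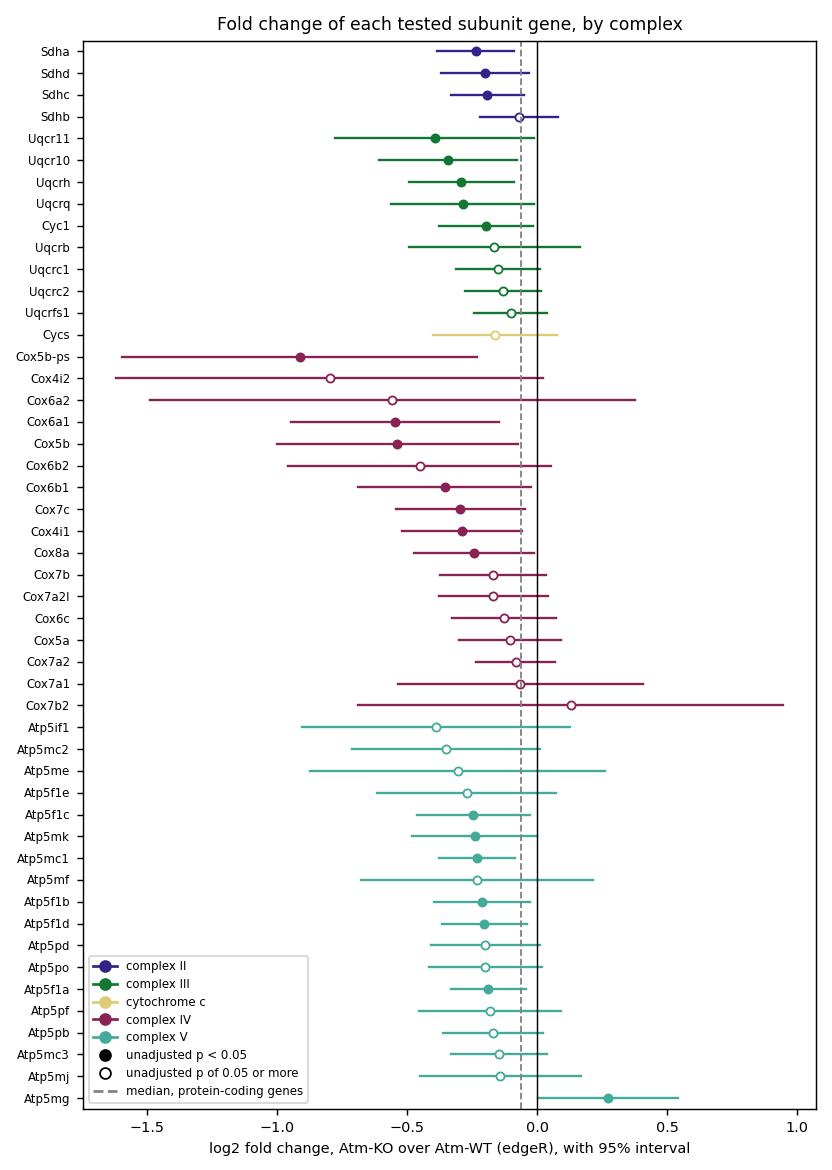
Log2 fold change (x axis, Atm-KO over Atm-WT, edgeR) of each of the 49 tested genes (y axis) with its 95% interval, coloured by complex. Filled points had an unadjusted p under 0.05, and the dashed line is the median of protein-coding genes. Points lie left of 0 for 47 genes, and the 2 to the right are Cox7b2 and Atp5mg.

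Summed over the members, the level was 4742, 4320, 4537 and 5273 CPM in the Atm-WT mice and 4070, 4389, 4190 and 3820 in the Atm-KO mice. Means were 4718 ± 408 and 4117 ± 238 CPM (SD, n = 4), a difference of -12.7%. The groups overlapped, because Atm-KO 7F lay above Atm-WT 7M. The same mice stood at the ends for most genes: among the 4 Atm-WT mice 32M was highest for 40 of the 49 genes (81.6%; 28.9% of all genes tested) and 7M lowest for 26 (53.1%; 25.1% of all genes). Among the Atm-KO mice 7F was highest for 32 (65.3%; 26.5% of all genes) and 12M lowest for 33 (67.3%; 32.3% of all genes). Mice 2M and 32M together were the top Atm-WT mice for 34 members (69.4%), against 20.4% of all genes.

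**Figure D2:**
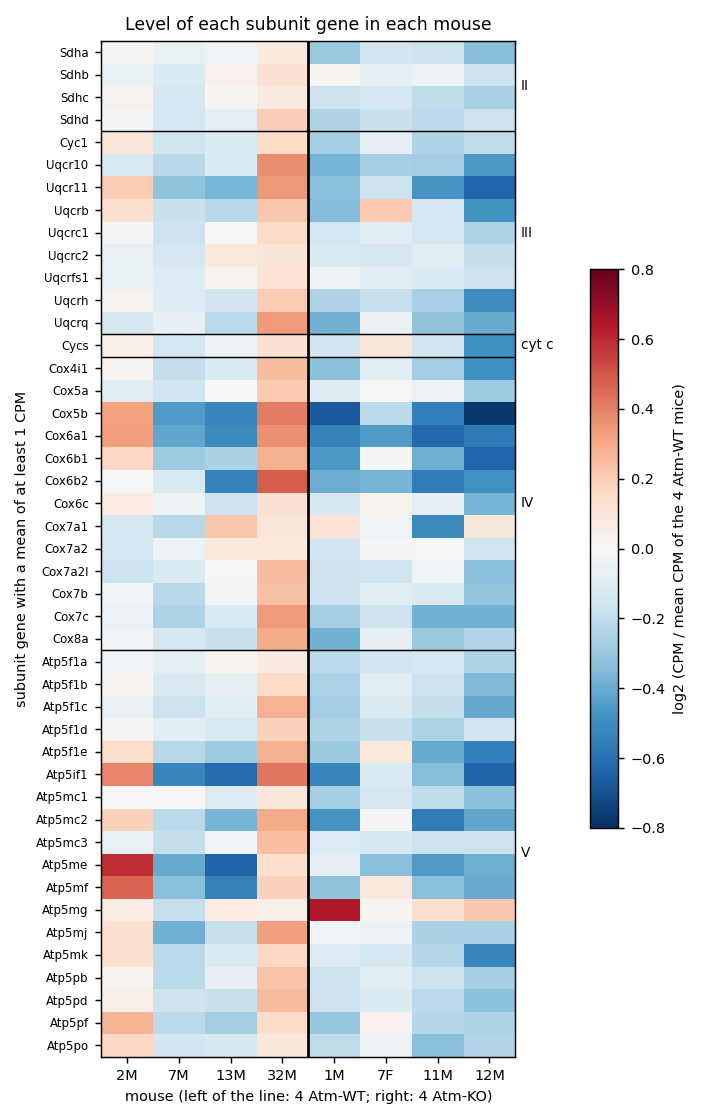
Level of each gene with a mean of at least 1 CPM (rows, grouped by complex) in each mouse (columns), as the log2 of its CPM over the mean of the 4 Atm-WT mice, with red higher and blue lower. Mouse 32M is red for most rows, mice 7M and 13M are mostly blue although they are Atm-WT, and the darkest red cell among the Atm-KO columns is Atp5mg in mouse 1M.

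Stretches before the start sites are shown for 5 members described below, each printed because it holds a motif match. Nuclear respiratory genes are known to share sites for NRF1, GABPA (an ETS factor, also called NRF2) and YY1. RefSeq promoter windows of 300 bases (250 before the start and 50 after it, GRCm38.p6) were found for 36 of the 52 members, 13 of them by an older symbol. The letters TGCGCA, the palindromic core of the NRF1 motif, were in 8 of the 36 (22.2%), against 14.5% of tested protein-coding genes and 8.79% of all genes with a window. CCGGAAGT on either strand, the GABPA motif, was in 4 (11.1%, against 7.91% and 4.31%), and AAGATGGC on either strand, the YY1 motif, in 3 (8.33%, against 4.62% and 3.19%). At least 1 of the 3 was found in 14 members and none in 22. Among those 22 were Sdhb, Uqcr10, Cycs, Atp5f1b and Atp5mc1, also described below. The 5 stretches below run from 100 bases before the start to the base before it, 5′ to 3′ on the gene's strand, with TGCGCA or the reverse complement of the GABPA motif in capitals. No match overlaps another. On GRCm38 they lie at chr13:74350241-74350340 (Sdha, minus strand), chr9:50603850-50603949 (Sdhd, minus), chr4:116075071-116075170 (Uqcrh, minus), chr1:36691387-36691486 (Cox5b, plus) and chr15:102671048-102671147 (Atp5mc2, minus).
Sdha: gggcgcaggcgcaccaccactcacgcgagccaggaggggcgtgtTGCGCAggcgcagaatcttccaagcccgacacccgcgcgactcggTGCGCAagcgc
Sdhd: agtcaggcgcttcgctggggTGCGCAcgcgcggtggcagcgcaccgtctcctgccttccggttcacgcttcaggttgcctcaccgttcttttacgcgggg
Uqcrh: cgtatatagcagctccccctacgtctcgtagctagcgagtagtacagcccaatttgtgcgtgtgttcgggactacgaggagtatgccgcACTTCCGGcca
Cox5b: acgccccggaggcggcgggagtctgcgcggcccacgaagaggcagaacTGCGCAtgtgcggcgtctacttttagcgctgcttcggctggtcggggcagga
Atp5mc2: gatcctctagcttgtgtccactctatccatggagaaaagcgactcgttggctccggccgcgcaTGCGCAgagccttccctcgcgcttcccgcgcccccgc
These are matches of letters, and no binding was measured. Sdha held TGCGCA at 2 places in this stretch. Of the 2 members with a log2 fold change above 0, Atp5mg held TGCGCA in its window and Cox7b2 held none of the 3 motifs.

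Complex II, succinate dehydrogenase, was lower in all 4 subunits. In 3 of them the genotypes did not overlap (75%, against 5.12% of all genes tested). The median log2 fold change was -0.20. Without Atm-WT 2M and 32M this median was -0.12. Sdha, the flavoprotein that oxidises succinate (GRCm39 chr13:74469359-74498436, minus strand), was at 383, 366, 373 and 402 CPM in the Atm-WT mice and at 310, 344, 339 and 300.2 in the Atm-KO mice. All knockouts lay below all wild-type mice (log2 fold change -0.24, 95% interval -0.38 to -0.09, edgeR adjusted p = 0.116). No other member had a smaller p. Without Atm-WT 2M and 32M its log2 fold change was -0.19.

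Sdhc, one of the membrane anchors that hold the heme, read 70.8, 63.3, 70.0 and 73.3 CPM in Atm-WT and 61.9, 62.9, 60.2 and 57.8 in Atm-KO. The groups were nearest at Atm-WT 7M and Atm-KO 7F, 63.3 against 62.9 CPM (log2 fold change -0.19, SE 0.06, adjusted p = 0.146). Sdhd, the other anchor, with TGCGCA in the stretch above, read 46.4, 42.6, 44.3 and 53.5 CPM in Atm-WT and 39.5, 41.2, 40.4 and 41.4 in Atm-KO (-0.20, SE 0.08, adjusted p = 0.182). Its Atm-KO mice were close together, with an SD of 0.859 CPM beside 4.77 in Atm-WT. Sdhb, the iron-sulphur subunit between the flavoprotein and the anchors, differed less: 67.4, 64.5, 71.3 and 75.8 CPM in Atm-WT against 70.4, 66.4, 67.5 and 61.9 in Atm-KO. The groups overlapped for Sdhb (-0.07, 95% interval -0.22 to 0.08, adjusted p = 0.610). Per 1000 bases of transcript, the level in Atm-WT was 124 CPM for Sdha, 37.1 for Sdhd, 21.6 for Sdhc and 17.3 for Sdhb.

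Complex III, the cytochrome bc1 complex, was lower in all 9 subunits (median -0.20). At an unadjusted p under 0.05 were 5 (55.6%, against 8.48% of all genes tested), and 2 did not overlap (22.2%, against 5.12%). With Cycs included the median was -0.18, and it was -0.082 with a surrogate variable and -0.071 without Atm-WT 2M and 32M. The 4 members furthest from 0 (Uqcr11, Uqcr10, Uqcrh and Uqcrq) encode small subunits without a redox group, although the small subunit Uqcrb was at -0.16, or 0.091 with a surrogate variable. Uqcrh, the acidic hinge protein that meets cytochrome c, read 64.4, 58.9, 57.1 and 73.0 CPM in Atm-WT and 53.6, 55.7, 52.8 and 45.0 in Atm-KO. Its groups did not overlap, although Atm-WT 13M and Atm-KO 7F were near each other (log2 fold change -0.29, SE 0.09, adjusted p = 0.133). Its stretch above holds the reverse complement of the GABPA motif close to the start. Uqcr10 read 28.6, 26.8, 28.8 and 40.4 CPM against 24.1, 25.9, 25.6 and 22.7 (-0.34, SE 0.12, adjusted p = 0.158). Atm-WT 32M stood well above the other 7 mice.

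Uqcr11, whose product binds near the Rieske protein, was at 12.3, 8.54, 8.29 and 13.5 CPM in Atm-WT and 8.47, 9.45, 7.69 and 6.87 in Atm-KO. Its Atm-WT mice fell into a high pair, 2M and 32M, and a low pair within the Atm-KO range (-0.39, SE 0.17, adjusted p = 0.237). Cyc1, cytochrome c1, read 72.5, 60.8, 62.7 and 75.0 CPM in Atm-WT and 56.0, 64.5, 57.2 and 58.8 in Atm-KO (-0.20, SE 0.08, adjusted p = 0.212), with the same high pair. Uqcrq, which helps to bind ubiquinone, was at 26.8 ± 4.87 and 22.0 ± 2.53 CPM (SD, n = 4, log2 fold change -0.29, adjusted p = 0.232). Atm-WT 32M was at 33.9 CPM, the other Atm-WT mice at 23.1 to 25.5 and the Atm-KO mice at 20.2 to 25.7. Of the other 4 subunits, Uqcrfs1, the Rieske iron-sulphur protein, was at 96.2 ± 6.48 CPM in Atm-WT and 89.7 ± 3.32 in Atm-KO (SD, n = 4, log2 fold change -0.10, SE 0.06, adjusted p = 0.398). Uqcrc1, a core protein, was at 170 ± 15.7 and 153 ± 7.27 CPM (-0.15, SE 0.07, adjusted p = 0.279).

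Cytochrome c is the soluble carrier between complexes III and IV and, when released, a trigger of caspase activation. Its somatic gene Cycs read 48.8, 42.8, 45.9 and 51.3 CPM in Atm-WT and 42.4, 50.3, 42.4 and 33.6 in Atm-KO. Atm-KO 7F was within the Atm-WT range and 12M below all other mice (log2 fold change -0.16, 95% interval -0.40 to 0.08, adjusted p = 0.427). With a surrogate variable in the model, the value was 0.03.

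**Figure D3:**
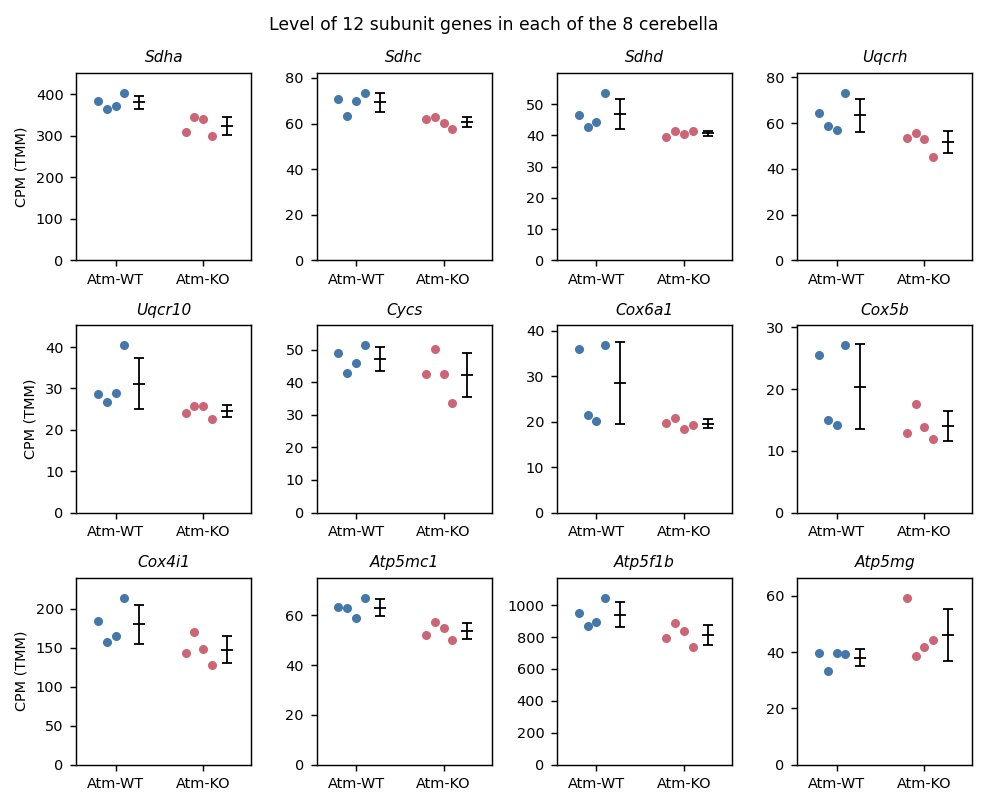
CPM (y axis, from 0) of 12 genes in each mouse. Points run left to right in the order of mice given at the start, and bars to the right of each group are mean and SD (n = 4). Sdha, Sdhc, Sdhd, Uqcrh, Uqcr10 and Atp5mc1 show no overlap between genotypes, Cox6a1 and Cox5b show 2 high and 2 low Atm-WT mice, and Atp5mg is highest in Atm-KO 1M.

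Complex IV, cytochrome c oxidase, had a median of -0.29 over 17 tested subunits, of which 16 were lower. Lower at an unadjusted p under 0.05 were 7 (41.2%, against 8.48% of all genes tested): Cox6a1, Cox5b, Cox5b-ps, Cox4i1, Cox6b1, Cox7c and Cox8a. Among them, only Cox5b-ps was without overlap. That is 5.88% of the 17, near the 5.12% of all genes tested and below the 9.98% of genes at 50 CPM or more. Without Atm-WT 2M and 32M the median was -0.10, and with a surrogate variable it was -0.12. Cox6a1, the non-muscle form of subunit VIa (GRCm39 chr5:115483701-115487050, minus strand), read 35.9, 21.4, 20.1 and 36.8 CPM in Atm-WT against 19.6, 20.8, 18.4 and 19.3 in Atm-KO. Atm-WT 13M lay within the Atm-KO range, 7M just above it, and 2M and 32M far above it (log2 fold change -0.55, SE 0.18, edgeR adjusted p = 0.146).

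Cox5b, a peripheral subunit on the matrix side, showed the same split, at 25.5, 14.9, 14.1 and 27.0 CPM in Atm-WT and 12.9, 17.5, 13.9 and 11.96 in Atm-KO (-0.54, SE 0.21, adjusted p = 0.191). Near-identical sequence elsewhere in the genome covered 55.6% of its transcript, so reads may have been divided between copies. Cox5b-ps, a single-exon copy on chromosome 13 that the annotation holds as protein coding, had 21 to 63 counts per library. Its level was 0.831, 0.430, 0.466 and 0.583 CPM in Atm-WT and 0.318, 0.310, 0.271 and 0.326 in Atm-KO (-0.91, SE 0.31, adjusted p = 0.152). Near-identical sequence elsewhere covered 65.4% of it, so its reads are uncertain in the same way.

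Cox4i1, the subunit IV isoform of most tissues and the most abundant of the complex per length (230 CPM per 1000 bases in Atm-WT), read 184, 158, 166 and 214 CPM in Atm-WT and 144, 170, 148.6 and 128 in Atm-KO. The groups overlapped in Atm-KO 7F (-0.29, SE 0.11, adjusted p = 0.169), and the value was -0.098 with a surrogate variable. Among the small membrane subunits, Cox7c and Cox8a had log2 fold changes of -0.29 and -0.24 (adjusted p = 0.186 and 0.229). Both were highest in Atm-WT 32M, at 77.2 and 105 CPM beside Atm-WT means of 60.9 and 85.7. Cox6b1, on the outer face next to cytochrome c, had a log2 fold change of -0.36 (adjusted p = 0.220). Cox5a, a matrix-side subunit next to IV, was at 69.7 ± 7.82 CPM in Atm-WT and 64.9 ± 5.50 in Atm-KO (SD, n = 4, log2 fold change -0.10, adjusted p = 0.542), and was 0.05 with a surrogate variable. Cox7a2l, the factor that joins complexes III and IV into supercomplexes, was at 81.7 ± 10.9 and 72.7 ± 6.02 CPM (-0.17, SE 0.10, adjusted p = 0.345), and was -0.014 with a surrogate variable.

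The tissue isoforms of complex IV were scarce in every mouse. Per 1000 bases of transcript in Atm-WT, Cox4i1 was 188-fold above Cox4i2 (the lung and low-oxygen form), Cox6a1 146-fold above Cox6a2 (the heart and skeletal muscle form), Cox7a2 33.8-fold above Cox7a1 (the muscle form) and Cox6b1 27.6-fold above Cox6b2 (the testis form). Cox4i2 had 26 to 108 counts per library, at 1.43, 0.793, 0.536 and 0.956 CPM in Atm-WT and 0.502, 0.878, 0.361 and 0.385 in Atm-KO (-0.80, 95% interval -1.62 to 0.02, adjusted p = 0.258). Its level was highest in Atm-WT 2M and overlapped between the groups. Cox6a2 had 8 to 23 counts (-0.56, adjusted p = 0.490), Cox7b2, the testis form of subunit VIIb, 22 to 56 (0.13, 95% interval -0.69 to 0.95, adjusted p = 0.880) and Cox7a1 81 to 149 (-0.06, adjusted p = 0.897). Cox7b2 turned to lower without Atm-WT 13M alone and without Atm-KO 1M alone. Cox8b, the muscle form of subunit VIII, had 2 to 36 counts and was not tested, and 36 were in Atm-WT 2M. Cox8c, the testis form, had 0 counts in all 8 libraries, where 3 counts would have been 0.0341 to 0.0455 CPM. Skeletal muscle markers summed to 0.537 to 1.26 CPM in Atm-WT mice and 0.600 to 3.38 in Atm-KO mice, with 2 of 8 tested (Mylpf at -1.49 and Acta1 at 0.90) and Myh2 and Myh4 at 0 in all Atm-WT mice.

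The balance between isoforms was tested for Cox4i2 over Cox4i1 and Cox7a1 over Cox7a2. For Cox4i2 over Cox4i1, the mean log2 ratio of counts was -7.64 ± 0.51 and -8.13 ± 0.44 (Atm-WT and Atm-KO, SD, n = 4), a difference of -0.50 (two-sided exact permutation p = 0.229, adjusted p = 0.610 over 8 ratios). For Cox7a1 over Cox7a2 the difference was 0.01 (exact p = 0.971). With 4 mice in each genotype the test cannot go below 0.0286, and one ratio alone at that p would have an adjusted p of 0.229 over the 8, so no single ratio could pass.

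**Figure D4:**
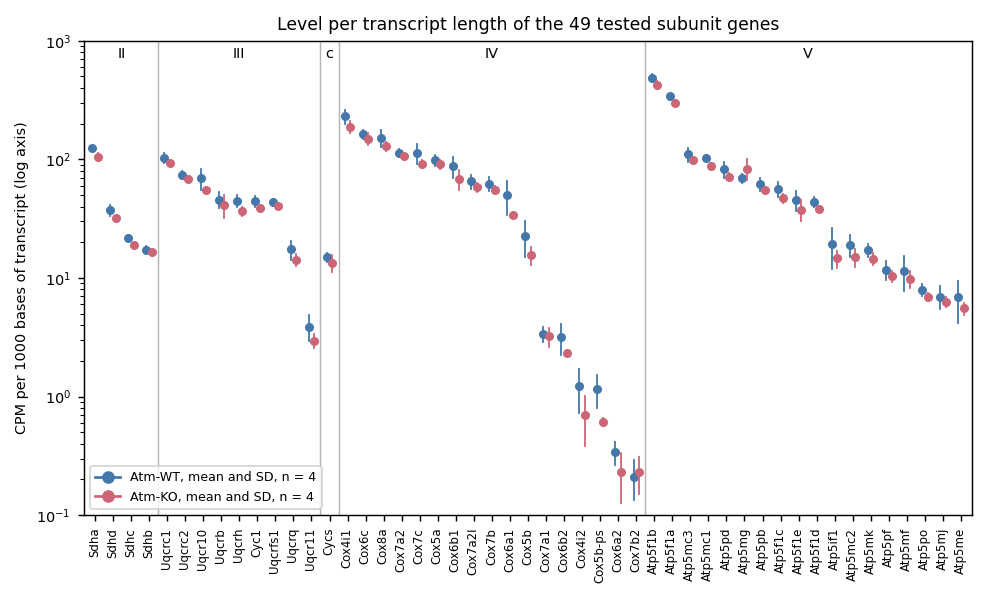
CPM per 1000 bases of canonical transcript (y axis, log scale) of the 49 tested genes, ordered within each complex by the Atm-WT mean. Points are means and lines SD of 4 mice per genotype. Complex V spans 6.85 (Atp5me) to 488 (Atp5f1b) in Atm-WT, and the 6 tail genes of complex IV, from Cox7a1 down, sit at or below 3.37.

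Complex V, the ATP synthase, was lower in 17 of 18 tested subunits (median -0.21), with 1 higher. The median was -0.062 with a surrogate variable and -0.037 without Atm-WT 2M and 32M. An unadjusted p under 0.05 in the lower direction was found for 6 (33.3%, against 8.48% of all genes tested): Atp5mc1, Atp5f1a, Atp5f1d, Atp5f1b, Atp5f1c and Atp5mk. It also supplied most of the summed level, 2612 ± 211 CPM in Atm-WT and 2286 ± 121 in Atm-KO (SD, n = 4). In the catalytic head, Atp5f1b (beta) read 953, 869, 893 and 1047 CPM in Atm-WT and 792, 886, 836 and 736 in Atm-KO (-0.21, SE 0.08, adjusted p = 0.197). Only Atm-KO 7F reached into the Atm-WT range. Atp5f1a (alpha) read 827, 802, 856 and 886 CPM against 727, 757, 765 and 711, with no overlap (-0.19, SE 0.07, adjusted p = 0.156). Atp5f1d, the delta subunit of the central stalk, was without overlap too, at 74.7, 69.8, 68.1 and 84.4 CPM against 62.7, 65.7, 62.7 and 67.1 (-0.20, SE 0.07, adjusted p = 0.169).

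Subunit c, which forms the rotating ring, comes from 3 genes that give the same mature protein. Atp5mc1 read 63.3, 63.0, 58.8 and 67.1 CPM in Atm-WT and 52.1, 57.4, 54.9 and 50.2 in Atm-KO. The groups did not overlap (-0.23, 95% interval -0.38 to -0.09, edgeR adjusted p = 0.116), although near-identical copies covered 85.8% of this transcript. Atp5mc2, with copies over 89.2%, was at 15.8, 11.98, 10.8 and 17.1 CPM against 10.04, 13.7, 9.47 and 10.4 (-0.35, SE 0.17, adjusted p = 0.262). Atp5mc3 had no such copy and was at 109 ± 14.1 and 98.3 ± 2.34 CPM (SD, n = 4, log2 fold change -0.14, SE 0.08, adjusted p = 0.354). Atm-WT 32M was at 129 CPM, the other Atm-WT mice at 95.2 to 107 and the Atm-KO mice at 96.3 to 101. The log2 ratios of Atp5mc1 and of Atp5mc3 to Atp5mc2 differed by 0.11 and 0.20 (two-sided exact permutation p = 0.543 and 0.314).

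Atp5po, the OSCP subunit that ties the head to the stator, was at 20.9 ± 2.28 CPM in Atm-WT and 18.2 ± 1.54 in Atm-KO (SD, n = 4, log2 fold change -0.20, adjusted p = 0.284). Its readthrough gene had 0 counts in all libraries. Atp5if1, the inhibitor that blocks ATP hydrolysis by the reversed enzyme, read 16.7, 8.87, 8.30 and 17.0 CPM in Atm-WT and 8.85, 11.8, 10.03 and 8.17 in Atm-KO. Here the spread among Atm-WT mice was larger than the difference (-0.39, 95% interval -0.90 to 0.13, adjusted p = 0.373), and without mice 2M and 32M the value was 0.18. Relative to Atp5f1b in the same library, Atp5if1 differed by -0.11 (exact permutation p = 0.600).

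Atp5mg, subunit g near the dimer interface, was the exception, at 39.7, 33.5, 39.8 and 39.4 CPM in Atm-WT and 59.4, 38.6, 41.7 and 44.2 in Atm-KO (0.27, SE 0.12, adjusted p = 0.242). One mouse, Atm-KO 1M, was far above the rest (without it the log2 fold change was 0.12), and Atm-KO 7F was within the Atm-WT range. Near-identical copies covered 65.1% of its transcript, and the gene Gm30934 lies on the opposite strand. Atp5mg, Sdhd and Cox5a lie on chromosome 9, as Atm does. On a mixed background, sequence linked to the changed Atm allele and loss of ATM cannot be told apart, and this was not tested. The neighbours of Atp5mg at the interface were Atp5me (subunit e) at -0.30 (adjusted p = 0.538), Atp5mf (subunit f) at -0.23 (adjusted p = 0.555) and Atp5mk at -0.24 (adjusted p = 0.247). Without Atm-WT 2M and 32M, Atp5me and Atp5mf turned to 0.21 and 0.20.

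Transcript length and copies elsewhere in the genome played no part in the name rule. Of the 52 members, 25 had a canonical transcript under 1000 bases and 17 a near-identical copy. The 23 tested members with a canonical transcript under 1000 bases had a median of -0.29, and the 26 with longer ones -0.19. Without any stretch of at least 100 bases at 98% identity elsewhere in the genome, 32 members had a median of -0.21, and the 8 with at least 40% of the transcript in such copies had -0.26. An annotated exon on the opposite strand overlapped 33 of the 52, and the 17 tested members without one had a median of -0.24. With trends of GC content and length removed from each library, the median of all members was -0.21 and 47 were lower.

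The partners made from the mitochondrial genome were lower too, by more on the log2 scale but with wide spread. Summed over mt-Cytb of complex III, mt-Co1 to mt-Co3 of complex IV and mt-Atp6 and mt-Atp8 of complex V, the level was 8831, 6711, 7076 and 7909 CPM in Atm-WT and 4534, 6992, 5193 and 4034 in Atm-KO. Most of this sum was mt-Co1, at 6891 CPM in the Atm-WT mean, followed by mt-Cytb at 698, while the other 4 genes were at 0.347 to 23.4 CPM. Near-identical copies elsewhere in the genome were looked for only for the nuclear members. Their part in these uneven levels was not tested. For the sum, Atm-KO 7F was within the Atm-WT range, and the other 3 were below it. Of the 6 genes, 5 were lower and 3 had an unadjusted p under 0.05 (median -0.42). Within a library, the log2 ratio of Cyc1 to mt-Cytb had means of -3.34 ± 0.27 and -2.85 ± 0.30 (Atm-WT and Atm-KO, SD, n = 4), a difference of 0.49 (two-sided exact permutation p = 0.0857). For Cox4i1 over mt-Co1 the difference was 0.29 (exact p = 0.0571) and for Atp5f1b over mt-Atp6 it was 0.16 (exact p = 0.514). With adjustment over the 8 ratios tested, none of these had an adjusted p below 0.343. With each library left out in turn, the difference of the Cyc1 ratio ran from 0.36 (without Atm-WT 2M) to 0.63 (without Atm-KO 7F). Reads of mt-Atp6 also overlap mt-Atp8 and mt-Co3 on the same strand.

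Genes that help to build the complexes had a median nearer 0. Among 42 tested assembly factors 30 were lower and 12 higher, with a median of -0.04. At an unadjusted p under 0.05, 1 was lower (2.38%, against 8.48% of all genes tested). It was Cox10, which makes the heme of complex IV (-0.17, adjusted p = 0.246). Higher at that level were 3, a smaller share than the 11.7% of all genes tested. They were Cox16 (0.55, adjusted p = 0.139), the copper carrier Cox17 (0.59, adjusted p = 0.167) and Cox18 (0.29, adjusted p = 0.219). Of 14 regulators of respiratory genes, 9 were lower and 5 higher (median -0.06). Only Esrrg, an orphan receptor that binds respiratory promoters, had an unadjusted p under 0.05 (-0.24, adjusted p = 0.138). That is 7.14% of the regulators, where 8.48% of all genes tested were lower at that level. Nrf1 was at 28.5 ± 2.79 CPM in Atm-WT and 28.7 ± 2.24 in Atm-KO, Gabpa at 45.0 ± 2.60 and 43.3 ± 2.36, and Yy1 at 110 ± 7.71 and 105 ± 1.78 (SD, n = 4).

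Other gene groups differed between the same mice. The nuclear subunits of complex I were lower in 35 of 37, with a median of -0.18. At an unadjusted p under 0.05, 14 were lower (37.8%, against 8.48% of all genes tested and 15.4% of genes at 50 CPM or more). Cytosolic ribosomal protein genes, which belong to no mitochondrial complex, were lower in 75 of 81, with a median of -0.32. At that p, 60 were lower (74.1%, against the same 8.48% and 15.4%). Across the 8 mice, the median log2 level of the ribosomal protein genes relative to the Atm-WT mean was 0.06, -0.16, -0.14 and 0.21 in wild-type mice. It was -0.30, -0.17, -0.25 and -0.47 in knockouts. That of the respiratory members was 0.03, -0.15, -0.11 and 0.21, then -0.24, -0.08, -0.21 and -0.33. Both lists were highest in Atm-WT 32M and lowest in Atm-KO 12M.

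RNAs listed as kept in the nucleus (Malat1, Neat1, Meg3 and 9 others) ran the other way, higher in 10 of 12 with a median of 0.61. No cell fraction was measured, and the lower ones were Gas5 (-0.16) and Peg13 (-0.14). Without overlap, 8 were higher, as were 6.47% of all genes. Of the 12, Neat1 rose by the test across all genes (0.70, SE 0.09, edgeR adjusted p = 0.0371). The summed level of the 12 was 9689, 9359, 10340 and 5419 CPM in Atm-WT and 16576, 10885, 11618 and 16321 in Atm-KO. The lowest was Atm-WT 32M, in which the members were highest. Among the Atm-KO mice 7F had the lowest sum of these RNAs, the lowest TEC share (0.354%) and the highest sum of the members. The part of nuclear RNA, TEC share and library composition in the members' result was not tested. Scaling by library size alone gave a member median of -0.16 with 9 lower at the unadjusted p (4.66% of all genes), and normalization on protein-coding genes alone gave -0.16 with 11 (7.41% of the genes of that fit).

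**Figure D5:**
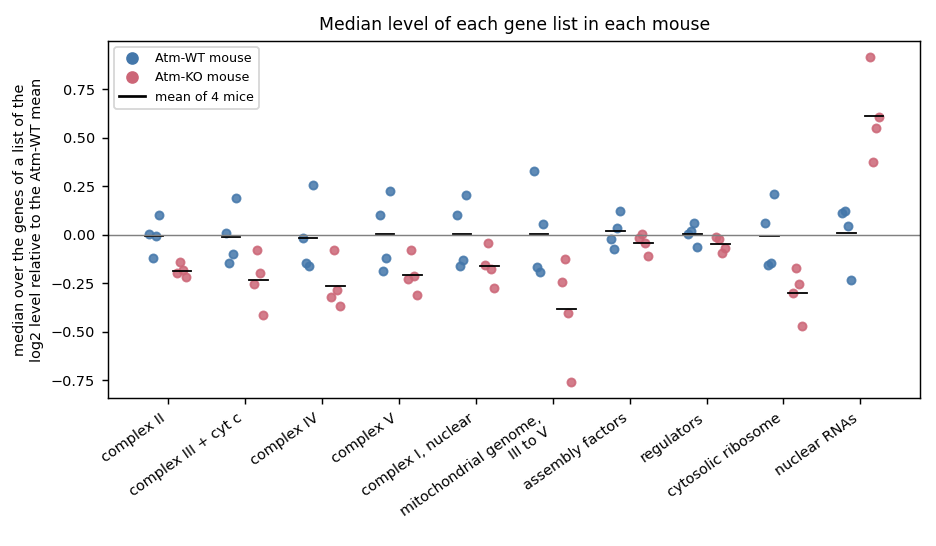
Median, over the genes of each list (x axis), of the log2 level relative to the mean of the Atm-WT mice (y axis) in each mouse, with bars for means of 4 mice. For the 4 complexes all Atm-KO mice lie below 0 and the highest Atm-WT mouse between 0.10 and 0.26, while the nuclear RNAs lie between 0.38 and 0.92 in the Atm-KO mice.

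Cell type markers also differed, and their part in the result was not tested. Microglia markers were lower in 8 of 8 (median -0.36, summed level 140 to 187 CPM in Atm-WT, 107 to 142 in Atm-KO) and choroid plexus markers in 6 of 6 (-0.60, 770 to 1540 and 418 to 1200 CPM). Astrocyte and Bergmann glia markers were lower in 8 of 8 (-0.16, 5071 to 5802 and 4492 to 5258 CPM) and oligodendrocyte markers in 7 of 8 (-0.18, 3282 to 4314 and 1987 to 3394 CPM). The lowest oligodendrocyte sum was in Atm-KO 12M, where the respiratory members were lowest as well. Purkinje cell markers were lower in 7 of 8 (-0.13), endothelial markers in 4 of 8 (-0.09, 283 to 316 and 234 to 305 CPM) and granule cell markers in 2 of 8 (0.06). Red blood cell markers were higher in 5 of 5 (0.61), at 5.87 to 42.9 CPM in the Atm-WT mice and 7.80 to 49.5 CPM in the knockouts, so some blood RNA was present in both genotypes.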

How the data were processed

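RNA from 8 cerebella (4 Atm-WT, 4 Atm-KO) had been sequenced on an Illumina platform. Per the labels and the methods, the authors checked reads with FastQC 0.11.9, aligned them with STAR to GRCm39 under GENCODE Release 28, and deposited raw counts per gene from featureCounts; the versions of those tools and their strand and pair settings are not given in the sources used here. Of counts from 1 to 20, 71.6% were even, so a count may stand for a read or for a fragment. Without strand, reads of overlapping genes on opposite strands cannot be told apart.

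Symbols, classes and canonical transcripts came from GENCODE vM39, joined on the deposited gene identifier with its version removed (98.8% found). Counts were filtered (filterByExpr), TMM scaled and tested with edgeR 4.0.16 (R 4.3.3; quasi-likelihood, Benjamini-Hochberg over 22423 genes, threshold 0.05). Alternatives used DESeq2 1.42.0, limma 3.58.1 and sva 3.50.0. The test was tried on simulated counts first. Copies were found with blastn 2.17.0. Ratios within a library used a prior count of 2 and were tested by exact permutation when no count was under 10. Relative levels are the log2 level of a gene minus its mean in Atm-WT. The table holds 20123 genes at 0 in every library.

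Named genes were, in each complex, the 3 lower genes with the smallest p, up to 2 higher ones, the gene with the largest change at 1 CPM or more, the genes of the ratios and a fixed set of core subunits; Cox6b1, Cox6b2, Cox7c, Uqcrq, Uqcrb, Cox6c, Atp5mj, Atp5pf, Atp5f1c, Atp5me, Atp5mf and Atp5mk were added after their values were seen. Members, lists and named genes were chosen with earlier results of these data known. No source says that the mice came from separate litters, so p-values cover the spread between these samples. The 95% intervals of log2 fold changes rest on the same spread, and the limit set by a count of 0 covers counting error only. Every column of per-sample values was used.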

Additional observations from a re-analysis of the deposited data

Results flagged for a closer look

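In 92 groups of 4 mice (each tested gene named or fixed, per genotype), a mouse standing apart by Dixon's criterion was looked for, and chance alone would give about 4.6; it was found in 2. Uqcr10 in Atm-WT 32M was at 40.4 CPM, with the next mouse of the group at 28.8 and the lowest at 26.8. Atp5mg in Atm-WT 7M was at 33.5 CPM, with the other 3 Atm-WT mice between 39.4 and 39.8. Without Atm-WT 32M the Uqcr10 log2 fold change was -0.19.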

How the results depend on the processing

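The median log2 fold change of the members was below 0 in every alternative, between -0.25 and -0.08, and 41 to 49 members were lower. The median of all genes moved between -0.02 and 0.03. The count of members at an adjusted p under 0.05 was 0 throughout except with DESeq2, where it was 3. The count lower at an unadjusted p under 0.05 (21) was 9 with library size alone (4.66% of all genes lower at that level), 11 with protein-coding genes alone (7.41%) and 1, Cox5b-ps, with a surrogate variable (4.35%); it ran from 8 to 29 with each library left out (5.67% to 8.63%), and was 3 without Atm-WT 2M and 32M (5.08%) and 5 without Atm-WT 32M and Atm-KO 12M (6.05%). The count without overlap (9) was 3 with library size alone (2.64% of all genes) and ran from 9 to 24 with each library left out (6.09% to 9.32%). The complex IV median was -0.12 with a surrogate variable and, without Atm-WT 2M and 32M, -0.10, while complex II was then -0.12 and complex V -0.037.

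Directions turned for some members. With a surrogate variable 6 of the 49 turned: Sdhb was 0.0028, Cycs 0.027, Cox5a 0.049, Atp5mj 0.024, Uqcrb 0.091 and Cox6c 0.033. With each library left out, Cox7b2 ran from -0.092 to 0.34 and Cox7a1 from -0.13 to 0.072. Without Atm-WT 2M and 32M 6 turned, with Atp5if1 at 0.18, Atp5me 0.21, Atp5mf 0.20, Atp5mj 0.14, Uqcrb 0.037 and Atp5pf 0.065. Without Atm-WT 32M and Atm-KO 12M 4 turned, with Sdhb at 0.0065, Cox5a 0.029, Atp5mj 0.026 and Uqcrb 0.0087. With each library left out, the Cox7a1 to Cox7a2 difference ran from -0.076 to 0.18, that of Atp5if1 to Atp5f1b from -0.27 to 0.039 and that of Cyc1 to mt-Cytb from 0.36 to 0.63. The cause was not tested for any of these. Leave-outs of 2 libraries were chosen after seeing the data.

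No paired analysis was possible because no label records pairs or litters. Depth limits the scarce isoforms (Cox4i2, Cox6a2, Cox7b2, Cox8b and Cox5b-ps).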
